A study of Mus musculus with 6 samples.

Results

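The epidermal growth factor (EGF) receptor family and its ligands were examined as 10 genes of the deposited RNA-seq table, of 38258 in all: the receptors *Egfr*, *Erbb2* and *Erbb3* and the ligands *Areg*, *Ereg*, *Hbegf*, *Tgfa*, *Epgn*, *Btc* and *Nrg1*. They were taken by gene name, and each name matched 1 gene. The RNA came from back-skin epidermis of newborn mice (postnatal day 0), sorted as EpCAM-positive, Sca1-positive and α6-integrin-high cells, a gate that enriches basal progenitors of the interfollicular epidermis. There were 3 libraries labelled control and 3 labelled Eed -/- Ring1a-/- Ring1b-/-, a combined loss of a core subunit of Polycomb repressive complex 2 (Eed) and of the ubiquitin ligases of Polycomb repressive complex 1 (Ring1a and Ring1b). The labels give neither the strain, the Cre driver nor the alleles carried by the controls, and they do not say whether replicates came from separate animals. The p-values below therefore reflect variation among these 6 libraries alone, part of which may be technical. Read from *Xist* and Y-linked genes, controls 1, 2 and 3 were male, female and male. Labelled knockouts 1, 2 and 3 were female, male and female, so each group held more than 1 animal and the sexes were not balanced.

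ErbB receptors are tyrosine kinases of the plasma membrane that act as pairs. EGFR binds EGF-like ligands directly, ErbB2 has no known ligand and serves as a partner, and ErbB3 binds neuregulins but has little kinase activity of its own, so that it signals through its partner. The ligands are made as membrane-anchored precursors and released by ADAM proteases. In epidermis the receptor drives the proliferation and migration of keratinocytes, and keratinocytes themselves make amphiregulin, heparin-binding EGF-like growth factor and transforming growth factor α, which act on the same or neighbouring cells.

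The values are the authors' normalized counts, and every log2 change is the mean of the libraries labelled triple knockout (below, labelled knockouts) minus that of the controls of log2(normalized count + 1), ± SE. The added 1 makes changes of low genes look smaller than they are. The sum of normalized counts lay between 21896285 and 29805729 in each library, and ribosomal RNA genes took 22.5% to 36.6% of them, most in control 3. Of the targeted genes, *Eed* had 714, 1015 and 778 normalized counts in controls and 381, 604 and 441 in the labelled knockouts (log2 change −0.82 ± 0.21, limma adjusted p = 0.0144), a call lost without control 2 (limma adjusted p = 0.0523) or without labelled knockout 1 (0.0615) or 3 (0.0543). *Rnf2* (Ring1b) had 739, 875 and 1288 against 783, 922 and 694 and did not pass (−0.24 ± 0.22, limma adjusted p = 0.417). *Ring1* (Ring1a) had 11.8, 8.72 and 23.1 against 67.7, 104 and 112 and was higher, not lower (2.70 ± 0.40, limma adjusted p = 0.000759). Each of these values is summed over a gene's transcripts and measures neither its alleles nor its protein. Whether the 3 targeted genes had lost their function, as labelled, was therefore not tested. By exact permutation (two-sided) p was 0.1 for *Eed*, 0.5 for *Rnf2* and 0.1 for *Ring1*; with 3 libraries a group no p under 0.1 can be reached. All 9 basal keratinocyte markers were detected, and 7 of them were lower and 2 higher in the labelled knockouts, among them the sort markers *Itga6* (lower), *Epcam* and *Ly6a* (both higher). The summed normalized count of 7 fibroblast markers was 30284 in control 3, against 8106 and 12417 in the other controls and 9355 to 14579 in the labelled knockouts. Of 6 Merkel cell markers 5 were tested, all of them higher (summed normalized count over the 6, 40.2 to 79.8 against 2104 to 2230). *Sox2*, *Isl1* and *Krt20* had control means of 0.80, 2.80 and 4.17. They passed the filter, a mean of at least 10 over all libraries, only through the labelled knockouts, so that count was partly set by the filter. *Atoh1* was not tested. It had 0, 0 and 3.02 in controls and 0 in every labelled knockout. Of 8 suprabasal keratinocyte markers 3 were higher and 3 lower, of 5 endothelial markers tested none was called, and of 5 leukocyte and Langerhans cell markers tested 1 was higher. Beside these marker counts, 20.5% of all 23006 tested genes were called higher and 15.3% lower. The part of these cell types in the values below was not tested.

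**Figure D1:**
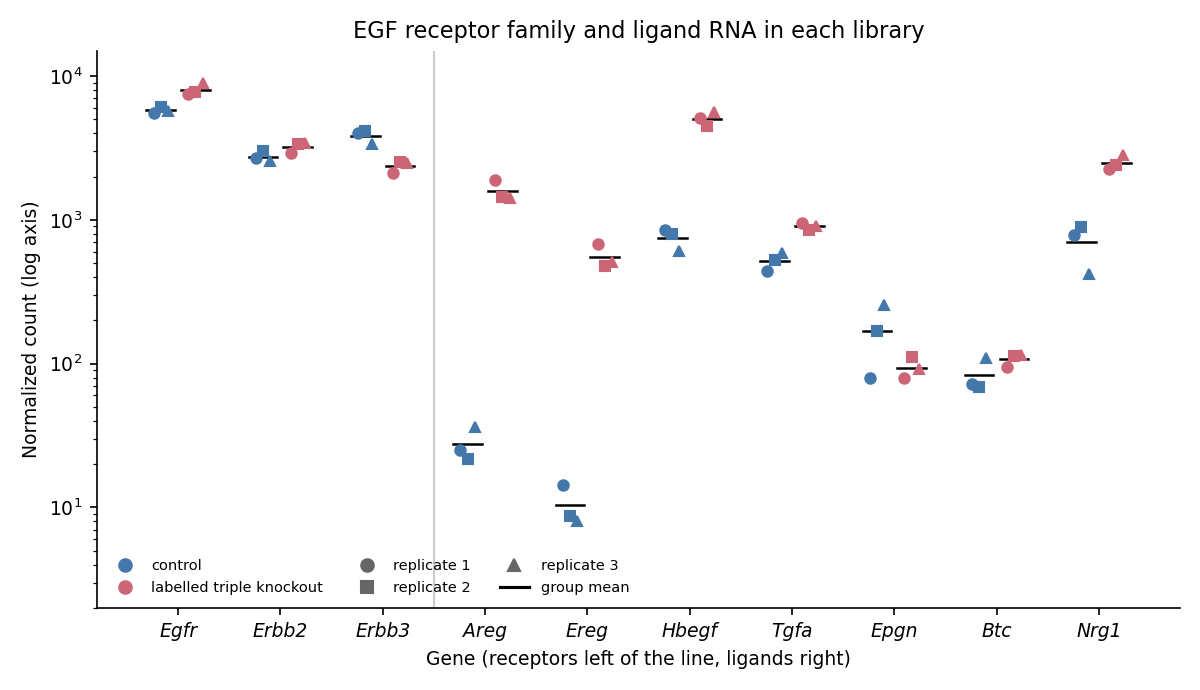
Normalized count (log axis) of each of the 10 genes in each library, with controls in blue, labelled knockouts in red, replicates by symbol and black lines at the group means. *Areg* and *Ereg* lie at or below 36.1 in all controls and at or above 478 in all labelled knockouts, and *Epgn*, *Btc* and *Erbb2* overlap between the groups.

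The ligands carried most of the difference. By limma, 5 of the 7 ligands rose (*Areg*, *Ereg*, *Hbegf*, *Nrg1* and *Tgfa*), none fell, and *Epgn* and *Btc* did not pass, and of the 3 receptors *Egfr* rose, *Erbb3* fell and *Erbb2* did not pass. Of the 10 members 7 were thus called, 6 higher and 1 lower, where 35.8% of all 23006 tested genes were called, 20.5% higher and 15.3% lower. The groups did not overlap for the same 7 members, against 49.1% of all tested genes. The median log2 change was 0.64 over the members and 0.01 over all tested genes. Of all calls 57.3% were higher, against 45.6% with quantile normalization and 39.5% with GC content and length regressed out, settings that shifted the median of all genes to −0.17 and −0.18; *Areg*, *Ereg*, *Hbegf*, *Nrg1* and *Tgfa* were called higher and *Erbb3* lower under both. All 10 members passed the filter of a mean of at least 10 over the 6 libraries. In RNA from a sorted population, a change in the share of cells that express a gene and a change in RNA per cell cannot be told apart.

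**Figure D2:**
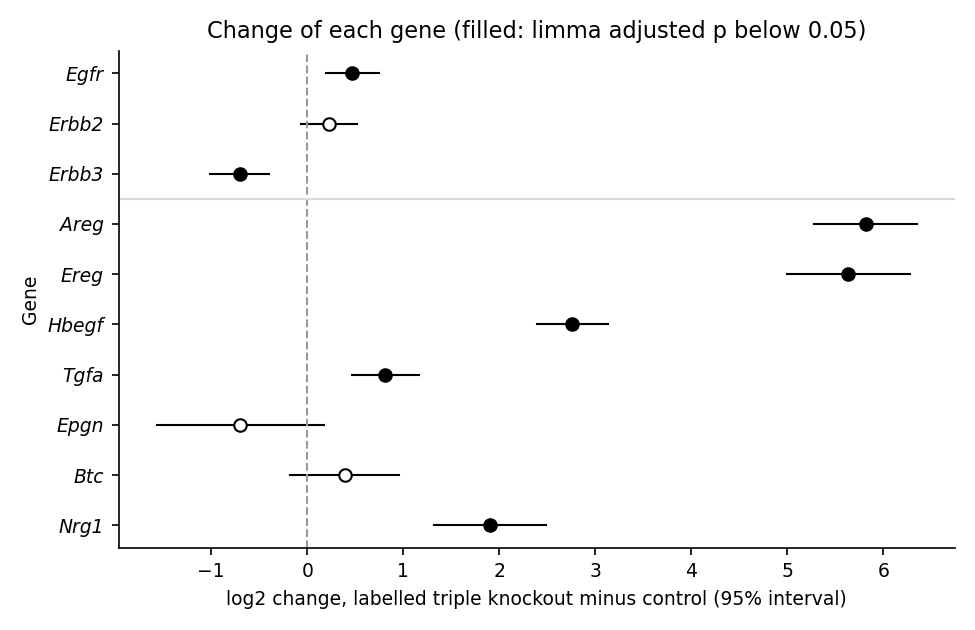
Log2 change of each gene (labelled knockout minus control) with its 95% interval from limma; filled points passed at an adjusted p below 0.05. The intervals of *Erbb2*, *Epgn* and *Btc* include 0, and those of *Areg* and *Ereg* begin at 5.28 and 4.99.

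*Egfr* (ENSMUSG00000020122.16, GRCm38 chromosome 11, 16752203 to 16918158, plus strand) encodes the receptor that most of these ligands bind. It measured 5514, 6105 and 5750.4 in controls and 7449, 7686 and 8956 in the labelled knockouts. Every labelled knockout stood above every control, and the rise was small (log2 change 0.47 ± 0.12, a fold of 1.38; limma adjusted p = 0.015). The call was lost under 4 of 15 alternatives: with GC content and length regressed out (0.16, limma adjusted p = 0.299), without trend or robust estimation (limma adjusted p = 0.0734), without control 1 (0.43, limma adjusted p = 0.0553) and without labelled knockout 3 (0.39, limma adjusted p = 0.0707).

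*Erbb2* (ENSMUSG00000062312.5, chromosome 11, 98412470 to 98437716, plus strand), the ligandless partner, had 2700.3, 2994 and 2571 in controls and 2907, 3389 and 3397 in the labelled knockouts. The groups overlapped, with 1 control above 1 labelled knockout. The log2 change of 0.23 ± 0.13 did not pass (limma adjusted p = 0.199), and its 95% interval ran from −0.06 to 0.52. With GC content and length regressed out it was lower and passed (−0.64, limma adjusted p = 0.00436), so no direction can be given for *Erbb2*.

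*Erbb3* (ENSMUSG00000018166.8, chromosome 10, 128567523 to 128589652, minus strand), the neuregulin receptor, was the only member called lower. It stood at 4037, 4128 and 3393 in controls and at 2103, 2521 and 2468 in the labelled knockouts. No labelled knockout reached the lowest control, and the log2 change was −0.70 ± 0.14 (limma adjusted p = 0.00347; between −1.11, with GC content and length regressed out, and −0.62 over 15 alternatives, all of which passed). *Erbb3* is also a receptor of melanocytes and Schwann cells. Melanocyte markers moved the other way: 7 of 8 were higher and none lower, and their summed normalized count was 406 to 579 in controls and 1241 to 1865 in labelled knockouts. Of 7 Schwann cell markers 4 were tested, 2 of them were higher, and the sum was 50.9 to 96.4 against 223 to 287. *Tyrp1*, *Mlana*, *Sox10* and *Foxd3*, all called higher, had control means of 6.90, 2.06, 3.94 and 2.11. They passed the filter on the mean only through the labelled knockouts. Beside these marker counts, 20.5% of all tested genes were called higher and 15.3% lower. The part of melanocytes and Schwann cells in the *Erbb3* value was not tested.

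*Areg* (ENSMUSG00000029378.5, chromosome 5, 91139599 to 91148432, plus strand) encodes amphiregulin, an EGFR ligand that keratinocytes make and respond to. It had 24.9, 21.8 and 36.1 normalized counts in controls and 1889.9, 1446 and 1422 in the labelled knockouts. This was the steepest rise of the family, with a log2 change of 5.81 ± 0.24, a fold of 56.2 (limma adjusted p = 9.86e-07; between 5.62 and 6.02 over 15 alternatives). *Ereg* (ENSMUSG00000029377.5, chromosome 5, 91074622 to 91093646, plus strand) encodes epiregulin, which binds EGFR and ErbB4. It had 14.4, 8.70 and 8.04 in the controls, at most about 11.0 reads per library, and 678, 478 and 508 in the labelled knockouts. Its log2 change was 5.63 ± 0.28, a fold of 49.7 (limma adjusted p = 2.5e-06; between 5.19 and 5.87 over 15 alternatives).

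*Areg* and *Ereg* are neighbours, with starts 65.0 kb apart on the same strand, and *Epgn* and *Btc* lie on either side of them. *Epgn* (ENSMUSG00000035020.11, chromosome 5, 91027464 to 91035215, plus strand) encodes epigen, another EGFR ligand. It measured 79.7, 169.7 and 254 in controls and 78.8, 111 and 91.1 in the labelled knockouts. The controls were widely spread and overlapped the labelled knockouts, and the log2 change of −0.70 ± 0.39 did not pass (95% interval −1.57 to 0.17, limma adjusted p = 0.192). It passed only without control 1, as a fall (−1.16, limma adjusted p = 0.0148), and was −0.33 without control 3. *Btc* (ENSMUSG00000082361.6, chromosome 5, 91357261 to 91402994, minus strand) encodes betacellulin, a ligand of EGFR and ErbB4. It had 72.0, 68.8 and 109.6 in controls and 95.3, 112 and 115 in the labelled knockouts, which overlapped (log2 change 0.39 ± 0.25, 95% interval −0.18 to 0.96, limma adjusted p = 0.265).

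**Figure D3:**
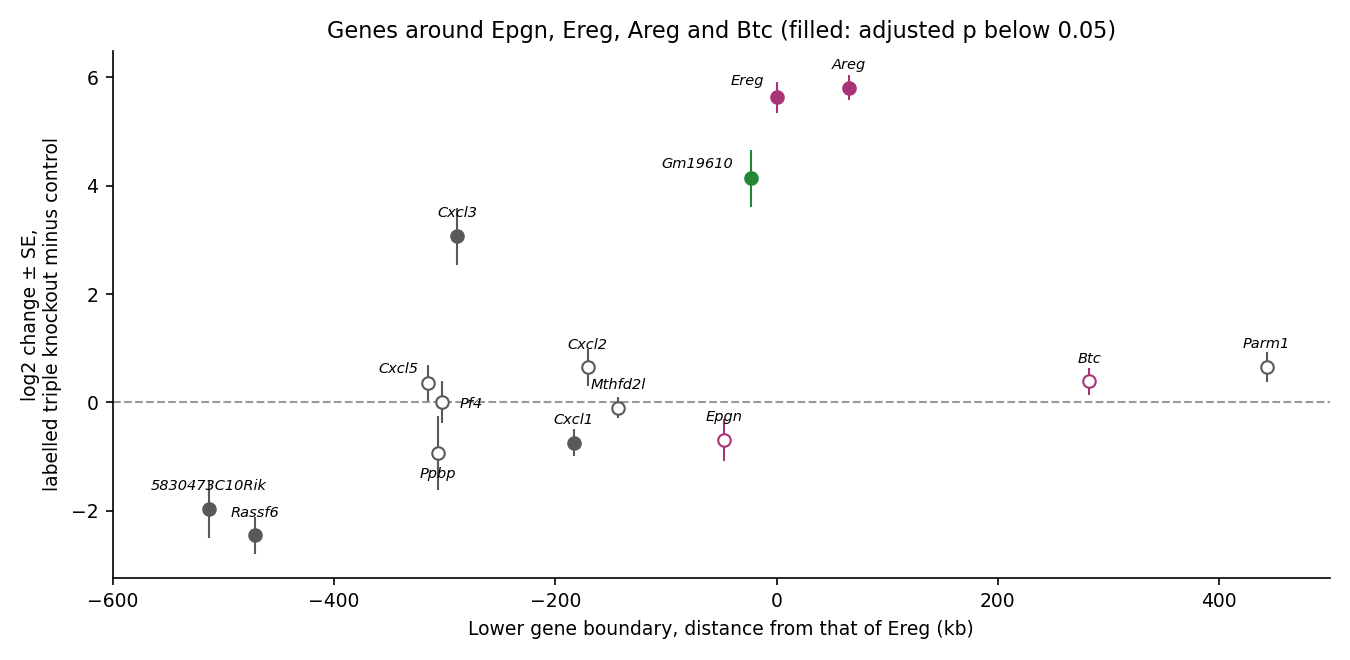
Log2 change ± SE (labelled knockout minus control) of the tested protein-coding genes around *Epgn*, *Ereg*, *Areg* and *Btc* (purple) and of the antisense RNA *Gm19610* (green), against the distance of the gene's lower boundary from that of *Ereg* in kb; filled points passed. *Ereg*, *Areg* and *Gm19610* stand above 4, while *Epgn*, 47.2 kb to one side, and *Btc*, 283 kb to the other, did not pass. The value of *Gm19610* rests on about 1.01 to 2.01 reads in controls and depends on the added 1. *Gm19610* met the filter on the mean only through the labelled knockouts.

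The other protein-coding genes with a start within 500 kb of these ligand genes numbered 11, of which 10 were tested, 1 was higher and 3 lower. Of all tested genes 35.8% were called, 20.5% higher and 15.3% lower. *Cxcl3*, a neutrophil chemokine, had 6.48, 3.59 and 3.31 in controls and 29.8, 88.7 and 30.6 in the labelled knockouts (log2 change 3.07 ± 0.53, limma adjusted p = 0.00181). *Rassf6*, a Ras-association domain protein, fell from 112 ± 24.6 to 20.3 ± 7.33 (log2 change −2.46 ± 0.34, limma adjusted p = 0.000544; SD, n = 3). The chemokine *Cxcl1* was lower (−0.75 ± 0.25, limma adjusted p = 0.0458), a call that was lost under 7 of 15 alternatives, among them the removal of any single library other than control 1. *5830473C10Rik* was also lower (−1.97 ± 0.54, limma adjusted p = 0.0192), but not without labelled knockout 2 or 3 (limma adjusted p = 0.0622 and 0.0558). *Cxcl3* (control mean 4.46) and *5830473C10Rik* (labelled knockout mean 3.80) passed the filter on the mean only through the group where they were higher. *Mthfd2l*, the gene on the far side of *Epgn*, held 261 ± 44.0 in controls against 242 ± 23.8 (limma adjusted p = 0.735). The antisense RNA *Gm19610*, named after its values were seen, overlaps the first 152 bases of *Ereg* on the opposite strand. It had 1.33, 1.10 and 2.02 in controls and 68.6, 41.2 and 26.2 in the labelled knockouts. With a control mean of 1.48, it too passed the filter on the mean only through the labelled knockouts. The sources used here do not say whether counting used strand, so reads from the overlap of *Ereg* and *Gm19610* cannot be told apart.

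Promoter sequences are shown for the 3 of these neighbours that the RefSeq promoter table (GRCm38) holds, because the ligand that rose and the ones that did not lie within 1 stretch of chromosome. Each is the 250 bases before the RefSeq start, 5′ to 3′ on the gene's strand, with every CG dinucleotide in capitals. The windows are chr5:91139349-91139598 (plus) for *Areg*, chr5:91027267-91027516 (plus) for *Epgn* and chr5:91402995-91403244 (minus) for *Btc*.
Areg: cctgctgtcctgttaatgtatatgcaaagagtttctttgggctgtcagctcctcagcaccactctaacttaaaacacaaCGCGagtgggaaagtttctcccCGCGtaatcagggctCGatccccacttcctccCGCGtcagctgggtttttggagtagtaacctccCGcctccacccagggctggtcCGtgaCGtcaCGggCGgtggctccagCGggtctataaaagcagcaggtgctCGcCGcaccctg
Epgn: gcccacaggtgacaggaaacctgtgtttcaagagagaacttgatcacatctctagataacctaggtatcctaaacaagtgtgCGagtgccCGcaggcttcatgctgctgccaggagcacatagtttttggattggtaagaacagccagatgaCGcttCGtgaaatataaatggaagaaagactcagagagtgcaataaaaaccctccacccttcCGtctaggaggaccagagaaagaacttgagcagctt
Btc: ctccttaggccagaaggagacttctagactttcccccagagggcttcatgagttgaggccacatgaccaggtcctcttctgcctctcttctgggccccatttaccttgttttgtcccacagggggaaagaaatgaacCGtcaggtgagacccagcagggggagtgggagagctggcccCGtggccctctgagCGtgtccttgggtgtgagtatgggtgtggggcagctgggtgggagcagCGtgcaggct

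The *Areg* window held 15 CG dinucleotides, against 5 for *Epgn* and 4 for *Btc*. The median over all 32851 windows of the same length was 6, and 27.3% of them held at least 15. Polycomb complexes are known to bind at CpG-rich promoters, and none of the values here measures their binding. The cyclic AMP response element TGACGTCA occurred once in the *Areg* window, seen as tgaCGtca in the sequence, and in 1.55% of all windows. It was in neither of the other windows. The TATA box letters TATAAA were found in the *Areg* and *Epgn* windows and in 12.4% of all windows, and the AP-1 motif TGANTCA in none of the 3 and in 6.75% of all windows. Both strands were searched, these motifs share no position, and a match describes letters and not a bound site. Of the other members, *Egfr*, *Erbb2* and *Tgfa* had 11, 16 and 19 CG dinucleotides in their windows, so that *Areg* did not hold the most among the 6 members given a window. No window is given for *Erbb3*, *Ereg*, *Hbegf* and *Nrg1*.

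Among the ligands outside this cluster, *Hbegf* had the largest absolute gain. *Hbegf* encodes heparin-binding EGF-like growth factor, a ligand of EGFR and ErbB4 that is released in wounded epidermis. Its gene is ENSMUSG00000024486.5 (chromosome 18, 36504929 to 36515805, minus strand). It measured 853, 797 and 607 in controls and 5137, 4469 and 5585 in the labelled knockouts. The lowest labelled knockout stood far above the highest control, and the log2 change was 2.76 ± 0.16, a fold of 6.77 (limma adjusted p = 5.35e-06; between 2.48 and 2.86 over 15 alternatives).

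*Nrg1* (ENSMUSG00000062991.7, chromosome 8, 31814551 to 32884029, minus strand) encodes neuregulin 1, the ligand of ErbB3 and ErbB4. It had 782, 888 and 423 normalized counts in controls and 2239, 2420.2 and 2834 in the labelled knockouts. The log2 change was 1.90 ± 0.26, a fold of 3.74 (limma adjusted p = 0.000483). Control 3, which held the highest sum of fibroblast markers, was the lowest for *Nrg1*, and without it the change was 1.58. None of the 7 fibroblast markers was called in either direction, against 35.8% of all tested genes. Controls were widely spread, however (*Col1a1* 4968 ± 4651, SD, n = 3). The part of fibroblasts in the *Nrg1* value was not tested. The ligand and its receptor had opposite signs in these libraries, *Nrg1* higher and *Erbb3* lower. The gene has 18 annotated transcripts, and the deposited value is 1 sum over them, so neuregulin isoforms are not resolved.

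*Tgfa* (ENSMUSG00000029999.14, chromosome 6, 86195223 to 86275719, plus strand) encodes transforming growth factor α, an EGFR ligand of keratinocytes. It had 444, 523 and 585 in controls and 947, 856 and 911 in the labelled knockouts, with no overlap. The log2 change was 0.81 ± 0.16, a fold of 1.76 (limma adjusted p = 0.00317), and it was 0.46 with GC content and length regressed out, where it still passed.

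To compare levels between genes, each normalized count was divided by the length of the gene's longest annotated transcript in kb. The summed ligand level was then 625, 689 and 620.5 per kb in controls and 4188, 3579 and 4031 in the labelled knockouts. The summed receptor level was 1749.9, 1882 and 1640.4 per kb against 1659, 1848 and 1965, which overlapped. With the mean length over annotated transcripts in place of the longest, the receptor sums were 3361, 3666 and 3295 against 3757, 4054 and 4477.4 and did not overlap. By the longest transcript, *Hbegf* was the highest ligand in every library, at 47.2%, 40.04% and 33.8% of the ligand level in controls and 42.4%, 43.2% and 47.9% in labelled knockouts. By the mean length *Nrg1* stood above it in control 2, at 33.03% against 32.3%. *Areg* went from 3.56% ± 1.12 to 33.1% ± 4.05 of the ligand level (SD, n = 3). *Tgfa* went from 17.8% ± 2.71 to 5.09% ± 0.168 and *Epgn* from 14.8% ± 8.03 to 1.37% ± 0.353, as shares of a larger sum. Of the receptor level, *Egfr* held 32.3% ± 1.80 in controls and 43.1% ± 2.09 in labelled knockouts, *Erbb2* 31.3% ± 0.478 and 35.3% ± 1.10, and *Erbb3* 36.4% ± 1.98 and 21.5% ± 0.987. These are descriptions with no test, and they depend on the length used. With the mean length over annotated transcripts, *Areg* went from 1.94% to 22.2%, *Nrg1* from 27.9% to 20.5%, *Erbb3* from 18.6% to 9.60%, *Egfr* from 57.0% to 66.3% and *Erbb2* from 24.4% to 24.1%. The order of the receptors and of the ligands is therefore not fixed, nor is a direction for the *Erbb2* share, while the direction of the *Egfr*, *Erbb3* and *Areg* shares was the same.

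**Figure D4:**
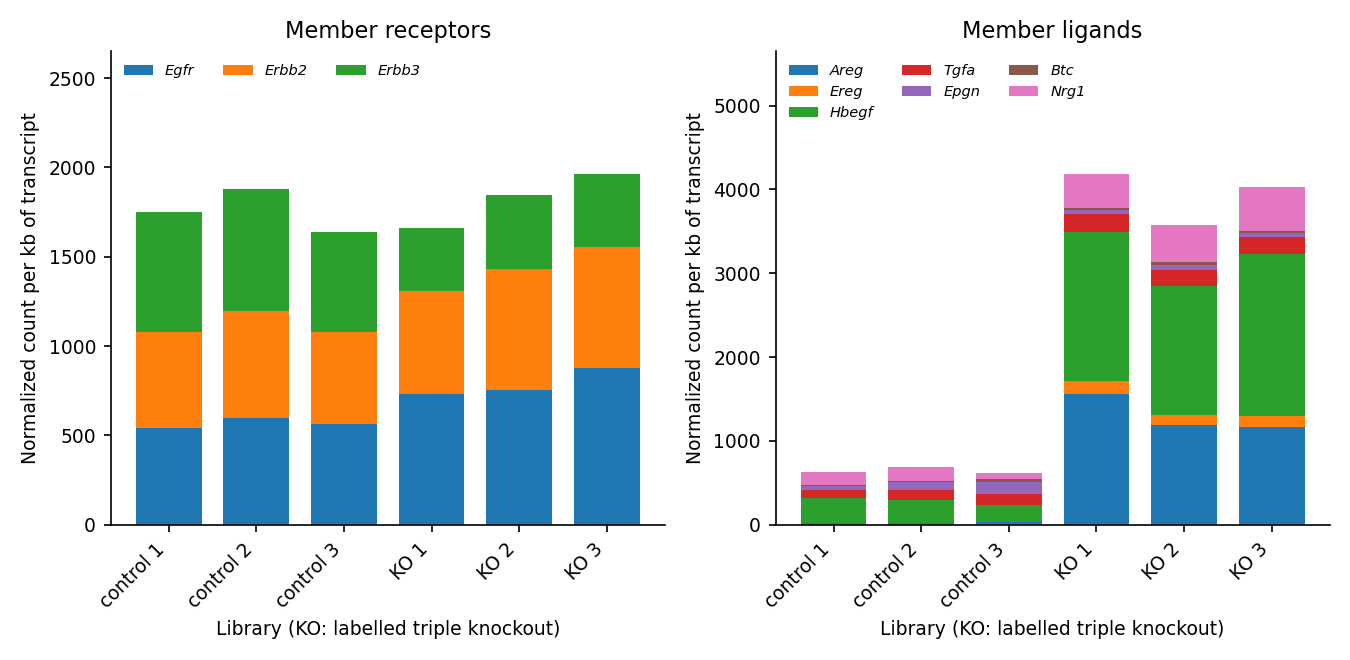
Normalized count per kb of the longest transcript, stacked by gene, for the 3 receptors (left) and the 7 ligands (right) in each library; KO marks labelled knockouts. Ligand bars rise from 620.5 to 689 in controls to 3579 to 4188 in labelled knockouts, mostly *Hbegf* and *Areg*, while receptor bars, between 1640.4 and 1965, overlap with this length and not with the mean transcript length.

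The remaining receptor and ligands of the family were low. *Erbb4*, which binds *Btc*, *Ereg*, *Hbegf* and neuregulin products, had 11.1, 0 and 2.46 in controls and 12.5, 9.99 and 6.09 in the labelled knockouts and was not tested. *Egf* (89.5 ± 24.05 against 88.3 ± 31.99; log2 change −0.04 ± 0.32, limma adjusted p = 0.932) and *Nrg4* (81.8 ± 20.3 against 99.6 ± 27.0; 0.27 ± 0.28, limma adjusted p = 0.492) did not pass, nor did *Nrg2* and *Nrg3*.

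Genes of ligand shedding and trafficking numbered 10, of which 4 rose and 2 fell (median log2 change over all 10, 0.04). For this list and those below, the shares over all tested genes were 20.5% higher and 15.3% lower. *Rhbdf2*, which encodes iRhom2, the carrier that brings ADAM17 to the cell surface, rose from 377 ± 139 to 1209 ± 219.7 (1.73 ± 0.25, limma adjusted p = 0.000725). The protease *Adam19* rose from 139 ± 29.4 to 336 ± 11.3 and *Timp3*, an inhibitor of ADAM17, from 5402 ± 1236 to 11359 ± 556. *Adam17* itself, the main sheddase of amphiregulin and transforming growth factor α, was lower (1237 ± 147 against 913 ± 91.8; −0.44 ± 0.15, limma adjusted p = 0.0493). *Adam10*, the main sheddase of betacellulin, was higher (1318 ± 45.7 against 1719 ± 100.5; 0.38 ± 0.12, limma adjusted p = 0.0373). The calls of *Adam17* and *Adam10* were lost under 9 and 10 of 15 alternatives, in both cases with the removal of any single library other than control 3. *Adam8* was lower (−0.97 ± 0.26, limma adjusted p = 0.018), but not without control 2 (limma adjusted p = 0.0654) or labelled knockout 1 (0.0726) or 3 (0.0734). *Bace1* (1162 ± 67.4 against 1098 ± 124, limma adjusted p = 0.674) and *Rhbdf1* (722 ± 184 against 614 ± 74.7, limma adjusted p = 0.465) did not pass. With GC content and length regressed out both were called lower (−0.55, limma adjusted p = 0.0117, and −1.18, limma adjusted p = 0.00307), while *Rhbdf2* and *Adam19* still passed with smaller changes of 0.84 and 0.65 and *Adam8* passed at −1.55.

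Inhibitors and feedback regulators of the pathway changed in both directions, with 7 of 18 tested genes higher, 4 lower and 7 that did not pass (median log2 change 0.36). The ERK phosphatase gene *Dusp4* had 27.5, 40.2 and 69.3 in controls and 868, 941 and 743 in the labelled knockouts (4.28 ± 0.31, limma adjusted p = 1.38e-05). *Spry4*, a Sprouty inhibitor of receptor tyrosine kinase signalling, had 57.7, 55.4 and 233 in controls and 939, 1174 and 1399 in the labelled knockouts (3.65 ± 0.48, limma adjusted p = 0.000437). *Dusp6*, another ERK phosphatase, rose from 1201 ± 543 to 3821 ± 248 (1.76 ± 0.27), and *Spred3* from 238 ± 18.5 to 661 ± 103. Control 3 was the highest control for *Dusp4*, *Spry4* and *Dusp6*, and without it their log2 changes were 4.63, 4.33 and 2.10. Among genes that fell, *Cblb*, a ubiquitin ligase that acts on activated receptors, went from 8335 ± 1553 to 2607 ± 485 (−1.68 ± 0.19, limma adjusted p = 0.000153) and *Socs4* from 1249 ± 9.91 to 643 ± 41.5. The receptor inhibitor *Lrig1* (−0.42 ± 0.13, limma adjusted p = 0.0298) and *Spred2* (−0.49 ± 0.16, limma adjusted p = 0.0363) were lower. The *Lrig1* call was lost under 5 of 15 alternatives, among them without control 1 and without labelled knockout 1 or 2. The *Spred2* call was lost under 6, among them without control 2 or 3 and without labelled knockout 1 or 2. *Cbl* (4685 ± 566 against 4321 ± 85.8, limma adjusted p = 0.543) and *Spred1* (1002 ± 322 against 1484 ± 125, limma adjusted p = 0.0519) did not pass. *Spred1* was called higher under 5 of 15 alternatives, among them without control 3 (limma adjusted p = 0.000806) and with the replicate number as a block (limma adjusted p = 0.0381). With GC content and length regressed out *Cbl* was called lower (−0.50, limma adjusted p = 0.00929), and *Lrig1* and *Spred2* were at −1.05 and −0.86.

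Of 28 signal transduction genes, 5 rose, 8 fell and 15 did not pass (median log2 change −0.11). *Map2k1*, the kinase MEK1, rose from 234 ± 67.4 to 735 ± 58.3 (1.68 ± 0.22, limma adjusted p = 0.00036), the phosphoinositide 3-kinase subunit *Pik3r3* from 172 ± 108 to 899 ± 187, and *Gab2*, a docking adaptor, from 139 ± 92.2 to 395 ± 37.1. The small GTPase genes *Hras* and *Nras* fell, *Hras* from 1278 ± 89.99 to 669.8 ± 27.8 and *Nras* from 11801 ± 1070.2 to 7774 ± 334. The phosphoinositide 3-kinase subunit *Pik3r1* fell from 4438 ± 619 to 2227 ± 246 and the Ras GTPase-activating *Rasa1* from 2211 ± 269 to 1254 ± 56.6. *Stat3* (5470.4 ± 839 against 5394 ± 399, limma adjusted p = 0.962) and *Braf* (3645 ± 311 against 3999 ± 319, limma adjusted p = 0.445) did not pass. With GC content and length regressed out *Stat3* was called lower (−0.52, limma adjusted p = 0.0108), and *Hras* was at −1.69.

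Transcripts that respond to the pathway were also divided, with 5 of 13 higher, 4 lower and 4 that did not pass (median log2 change 0.16). *Ccnd1*, which encodes cyclin D1, rose from 3360.3 ± 282 to 12156 ± 1409.7 (1.85 ± 0.13, limma adjusted p = 1.24e-05). The ETS factor *Etv4* had 50.7, 28.0 and 171 in controls and 279, 279 and 390.3 in the labelled knockouts (2.30 ± 0.54, limma adjusted p = 0.00958), a call lost with GC content and length regressed out (1.34, limma adjusted p = 0.056). *Plaur*, the urokinase receptor, rose from 295 ± 115 to 740.03 ± 135, and *Ier3* from 2022 ± 652 to 3428 ± 275. The *Ier3* call was lost under 5 of 15 alternatives, among them without control 1 and without labelled knockout 2 or 3. In the other direction, *Myc* fell from 4087 ± 202 to 1270.1 ± 184 (−1.69 ± 0.14, limma adjusted p = 3.07e-05) and *Jun* from 21445 ± 3955 to 10875 ± 1331. The immediate early genes *Junb* (−0.72 ± 0.18, limma adjusted p = 0.0142) and *Ier2* (−0.54 ± 0.14, limma adjusted p = 0.0141) were lower. Both calls were lost without labelled knockout 1, and that of *Ier2* also without labelled knockout 2. *Egr1* (78033 ± 15449 against 86426 ± 8893, limma adjusted p = 0.469) and *Fos* (13698 ± 2851 against 13601 ± 1378, limma adjusted p = 0.978) did not pass. *Egr1* was called higher without control 3 (0.32, limma adjusted p = 0.0434) and lower with GC content and length regressed out (−0.52, limma adjusted p = 0.0136), so no direction can be given for it. That regression also brought *Fos* to a call (−0.50, limma adjusted p = 0.0317) and moved *Plaur* to 0.81, *Jun* to −1.57, *Ier2* to −1.47 and *Junb* to −1.79. In all, 21 of 73 tested genes of the 5 lists were higher and 18 lower, and their median log2 change was −0.01. Over all tested genes 20.5% were higher and 15.3% lower.

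**Figure D5:**
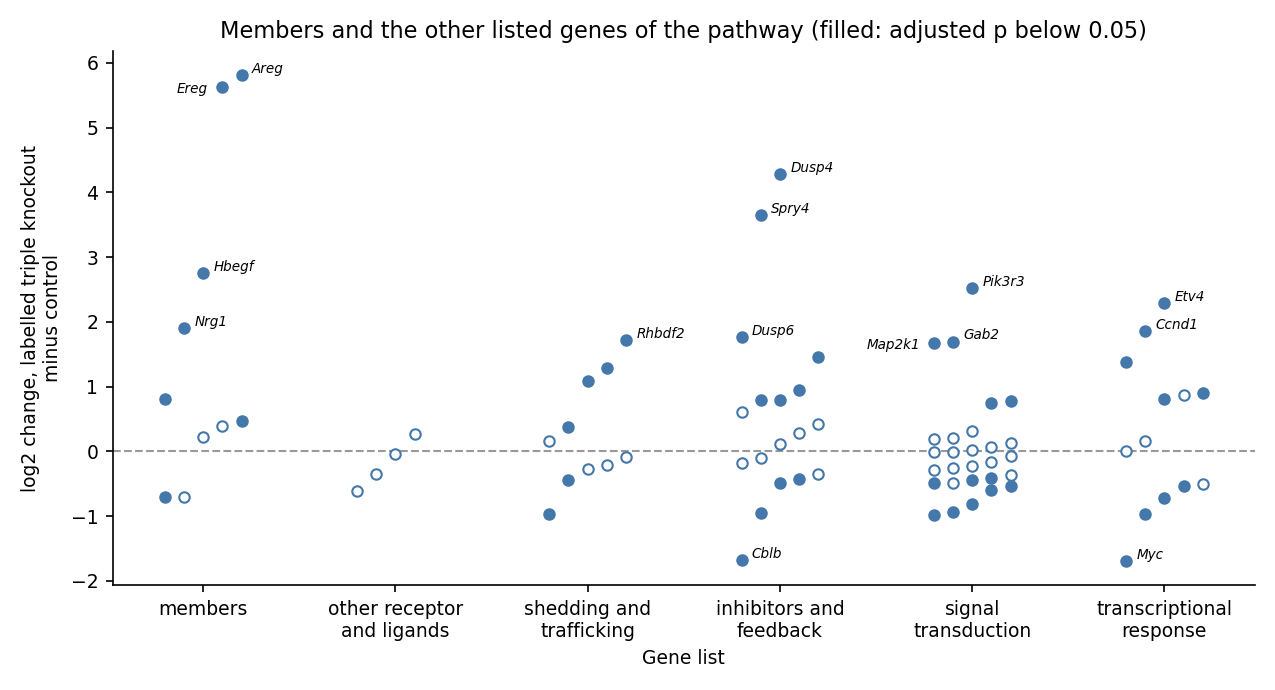
Log2 change (labelled knockout minus control) of every tested gene, for the 10 members and the 5 lists of other pathway genes; each point is a gene, filled where it passed. *Areg* and *Ereg* stand highest of all genes shown, followed by *Dusp4* and *Spry4*, and each list other than the remaining receptor and ligands has filled points on both sides of 0.

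The genes whose profile over the 6 libraries was most like that of a receptor were found by Pearson's r of log2(normalized count + 1). The search covered 12437 protein-coding genes with a mean of at least 50, leaving out predicted genes, clone names and the receptor itself. For *Egfr* the most alike genes were *Cabyr* (r = 0.999), *Pi4ka* (0.995) and *Sytl3* (0.993). For *Erbb2* they were *Paqr6* (0.989), *Fam173a* (0.987) and *Nop56* (0.985), and for *Erbb3* *Mtmr3* (0.9995), *Herc3* (0.997) and *Ppp1r14a* (0.997). The 6 libraries form the study's 2 groups, which sets much of each r, so these values describe likeness only.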

How the data were processed

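RNA-seq of 6 libraries (3 per group) was analysed from the table of normalized counts per gene that the authors deposited, treated here as a signal and not as raw counts. The authors ran kallisto 0.42.5 and DESeq2, per the submitters' processing notes; annotation, strand and options are not given in the sources used here. Low values were not whole multiples of 1 read for most genes (26.0% to 42.3% within 0.01 of a read, among values up to 20 reads), so no count model was run, and depth is approximate. No 2 libraries shared an identical value above 0. Of 38258 genes, 98.4% had the coordinates of GENCODE M21 (GRCm38), from which the build, transcript lengths and GC content were taken (99.98% of tested genes).

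Values were tested as log2(normalized count + 1) for 23006 genes with a mean of at least 10, with limma 3.58.1 in R 4.3.3 (trend and robust empirical Bayes, no covariate, two-sided), and adjusted by Benjamini-Hochberg over all tested genes at a threshold of 0.05. Groups follow the titles. Lists are described by counts, with no test over a list. The procedure was tested on simulated data in which few genes changed, equally many in each direction. In the deposited values 35.8% of tested genes were called, a setting that the simulation does not cover.

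The members and lists were chosen with earlier results of these data known. Genes named are the members, the targets, up to 4 called genes per direction and 2 of the highest that did not pass in each list, called neighbours, and 3 most alike genes per receptor; *Mthfd2l*, *Gm19610*, *Erbb4*, *Nrg2* and *Nrg3* were added after their values were seen. A gene that this rule names is not reported here. Another 15 settings were tried: adding 0.5 or 5 before the log, testing every gene above 0 or those with a mean of at least 50, quantile normalization, ordinary empirical Bayes (neither trend nor robust), a block for replicate number, splines (5 degrees of freedom) that regress out GC content and length within each library, a term for the sex of the pup (called from Y-linked genes and *Xist*), and each library left out in turn. Trimmed-mean (TMM) factors had been planned and are not reported, since their weights assume raw counts.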

Additional observations from a re-analysis of the deposited data

How the results depend on the processing

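*Areg*, *Ereg*, *Hbegf*, *Tgfa* and *Nrg1* were called higher and *Erbb3* lower under all 15 alternatives. Members called higher numbered 5 or 6 and called lower 1 or 2 (2 without control 1, where *Epgn* passed, and 2 with GC content and length regressed out, where *Erbb2* passed). Quantile normalization moved the median log2 change of all genes to −0.17 and the share of calls that were higher from 57.3% to 45.6%; regressing out GC content and length moved them to −0.18 and 39.5%, with 3708 genes higher and 5687 lower against 4726 and 3516, and with 36 pathway genes lower in place of 18. Pathway genes called lower were 9 without trend or robust estimation, and 9 to 16 with single libraries left out. Values that changed sign were *Erbb2* (−0.64), *Egr1* (−0.52), *Fos* (−0.50) and *Braf* (−0.017) with GC content and length regressed out (all but *Braf* then passing as lower), and *Stat3* with quantile normalization (0.048). With single libraries left out, *Stat3* ran from −0.14 to 0.085, *Fos* from −0.17 to 0.13, *Egf* from −0.32 to 0.16 and *Bace1* from −0.14 to 0.011. The cause of these changes was not tested. TMM factors, planned as another scaling, are left out, since their weights assume raw counts. Same-numbered libraries did not deviate together (correlations of 0.06, −0.02 and 0.02), which with 3 libraries a group cannot exclude a pairing by number. With the replicate block 6 members were higher and 1 lower, as without it, and 4761 genes were higher and 3345 lower. Under that block *Adam10* and *Adam17* lost their calls and *Spred1* gained one. *Ereg* and *Gm19610* in controls rest on about 11 reads or fewer per library.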
